A study of Mus musculus with 9 samples.

Results

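Expression of 10 genes that mark cytotoxic lymphocytes was followed in RNA of mouse nigral tissue. The list holds the cytokine gene Ifng, the granule protein genes Gzma, Gzmb, Gzmk, Prf1 and Nkg7, and the lymphocyte surface receptor genes Klrd1, Klrk1, Cd160 and Cd7. They were chosen by name for their role in these cells, with earlier results of these data known. Each symbol was matched to its identifier in GENCODE M21. The 10 genes are among 55450 genes counted, and all 10 are among the 20892 that passed the filter on low counts. The bulk RNA sequencing comprised 9 libraries in 3 groups, with 3 libraries in each. All libraries came from the manually dissected substantia nigra of saline-perfused male mice, collected 5 weeks after a Cre-inducible lentivirus was injected on both sides. CTR libraries came from CX3CR1-CreERT2 mice transduced with a vector for GFP, described as a destabilized form in the study's text. In this line Cre acts in CX3CR1-positive cells, microglia among them, once tamoxifen is given. CX3 libraries came from the same Cre line transduced with a Synuclein-expressing vector. DAT libraries came from DAT-Cre mice, in which Cre acts in dopaminergic neurons, transduced with that same Synuclein-expressing vector. Tamoxifen, given for 4 days, is described for the CX3CR1-CreERT2 mice and not for the DAT-Cre mice. CX3 and CTR therefore differ in the vector. DAT and CTR differ in the vector, the Cre line and this treatment, and these cannot be told apart. The mice are described as 8 weeks old in one place of the study and 9 weeks old in another, and the number of animals behind each library is not stated in the sources used here.

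Cytotoxic lymphocytes, which are CD8 T cells, natural killer (NK) cells and related cells, kill by releasing granules onto a target cell. Perforin opens the membrane of the target, and granzymes, which are serine proteases, enter through it and cut proteins inside the cell. Surface receptors of the killer lectin-like family read ligands on the target and raise or restrain this release. The same cells secrete interferon gamma, the product of Ifng, which acts on microglia and macrophages and induces antigen presentation and chemokine genes. Few lymphocytes reside in healthy brain tissue, and their number in the nigra can rise in inflammation.

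The 4 members with a difference between CX3 and CTR, given further on, were Ifng, Gzma, Gzmb and Gzmk, and their promoters are shown for that reason. RefSeq promoter windows were found for 8 of the 10 members, with Klrd1 and Cd7 unmatched. Each sequence is the 250 bases just before the annotated RefSeq start on the strand of the gene, in GRCm38.p6, written 5′ to 3′. Capitals mark the motifs that were searched on both strands: GGTGTGA of T-box factors, TGTGGT of Runx factors (ACCACA on the other strand), TGANTCA of AP-1 and TATAAA, the TATA box. The windows are chr10:118440796-118441045 on the plus strand for Ifng, and on the minus strand chr13:113100982-113101231 for Gzma, chr14:56262335-56262584 for Gzmb and chr13:113180966-113181215 for Gzmk.
Ifng: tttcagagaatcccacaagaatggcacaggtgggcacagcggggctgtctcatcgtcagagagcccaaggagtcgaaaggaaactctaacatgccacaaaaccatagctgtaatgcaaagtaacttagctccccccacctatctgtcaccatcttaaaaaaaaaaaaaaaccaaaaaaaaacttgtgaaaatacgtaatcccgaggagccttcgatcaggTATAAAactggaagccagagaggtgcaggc
Gzma: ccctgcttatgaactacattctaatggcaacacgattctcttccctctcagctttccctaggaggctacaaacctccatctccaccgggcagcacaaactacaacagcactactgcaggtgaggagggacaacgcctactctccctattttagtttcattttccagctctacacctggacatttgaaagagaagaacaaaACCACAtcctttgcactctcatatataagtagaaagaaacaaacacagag
Gzmb: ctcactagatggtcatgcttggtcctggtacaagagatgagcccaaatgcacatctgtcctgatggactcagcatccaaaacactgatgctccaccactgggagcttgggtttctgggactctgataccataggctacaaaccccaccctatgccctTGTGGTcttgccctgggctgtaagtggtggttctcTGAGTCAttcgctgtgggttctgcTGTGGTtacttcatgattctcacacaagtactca
Gzmk: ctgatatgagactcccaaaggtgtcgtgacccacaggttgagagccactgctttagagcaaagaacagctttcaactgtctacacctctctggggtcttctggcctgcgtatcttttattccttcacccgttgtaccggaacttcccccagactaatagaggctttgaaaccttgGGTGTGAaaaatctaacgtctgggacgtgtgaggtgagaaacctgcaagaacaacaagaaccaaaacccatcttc
The Ifng window held TATAAA from 30 to 25 bases before the start and none of the other motifs. Gzma held the Runx letters on the opposite strand, from 50 to 45 bases before its start. Gzmb held the Runx letters at 2 places, from 93 to 88 and from 34 to 29 bases before the start, with the AP-1 letters between them from 58 to 52 bases. Gzmk held the T-box letters from 75 to 69 bases before its start. Over the 9 windows of the 8 matched members, in which Cd160 has a pair of starts, the Runx letters were found in 7, against 14.0% of all 32851 windows of this length. T-box letters were found in 3 of the 9 member windows and 3.33% of all windows, AP-1 letters in 1 and 6.75%, and TATAAA in 1 and 12.4%. These are matches of letters and say nothing of whether a factor binds there.

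Reads counted on genes numbered 21592817 to 39475428 per library, with DAT B and DAT C the shallowest. Levels are given as CPM, counts scaled to the size of each library, and 3 counts, taken as the smallest countable signal, correspond to 0.0779 to 0.151 CPM, which covers counting error only. Reads of each strand were near equal, with 49.8 to 49.9% on the reverse strand, so strand does not tell apart genes that overlap on opposite strands. In counts of either strand, reads in exon bases that genes share are counted for none of them. Ifng shares 25.9% of its exon bases with Gm49751 on the same strand. Cd7 shares 10.8% with Gm11775 and Cd160 2.57% with Pdzk1, both on the opposite strand. Libraries differed less within groups than between them, and DAT B stood apart from the other DAT libraries. Squared differences in counts were 1.46 to 1.79 times those of random sampling between CTR libraries, 2.52 to 6.28 times between CX3 libraries and 2.25 to 16.5 times between DAT libraries, against 35.5 to 151 times between groups. DAT B differed from DAT A by 16.5 times and from DAT C by 12.1 times the sampling, while DAT A and DAT C differed by 2.25 times. DAT B also had an erythroid marker sum of 266 CPM, against 187 and 196 CPM in DAT A and DAT C. Without DAT B, 9 members were still called lower in DAT than in CTR and 8 higher in CX3 than in DAT. In these comparisons 6560 and 6565 of the 21699 genes tested without DAT B were called in the same directions. Use of immunoglobulin variable-region genes had a Spearman rho of 0.991 to 0.992 within CTR, 0.943 to 0.955 within CX3 and 0.778 to 0.882 within DAT, against 0.154 to 0.484 between groups. Since the labels do not state that the libraries of a group came from separate animals, all p-values below measure the spread between these libraries, which may be technical.

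**Figure D1:**
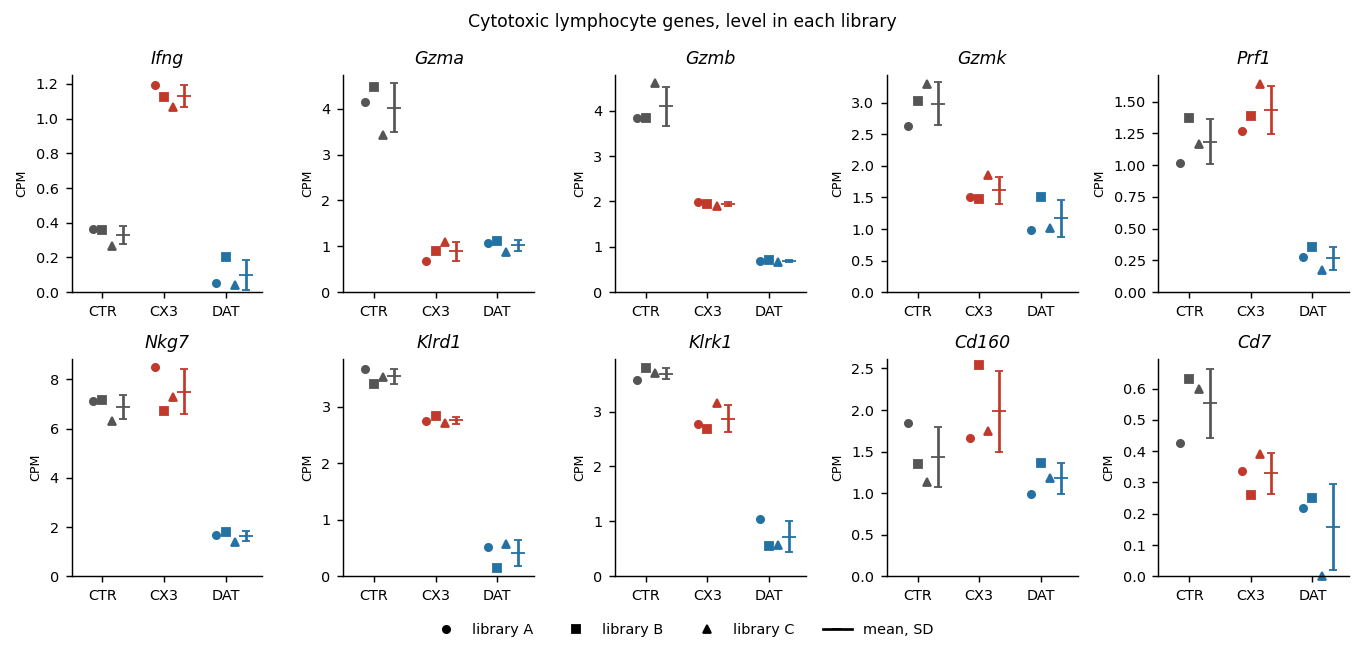
Level of each of the 10 genes in CPM (y axis, from 0, a separate scale per gene) in the 3 libraries of CTR, CX3 and DAT, with symbols for libraries A, B and C and the mean ± SD beside them. Ifng was between 1.07 and 1.19 CPM in CX3 and at most 0.361 CPM elsewhere, Gzma was near 1 CPM in both CX3 and DAT, and all members but Cd160 were lower in each DAT library than in any CTR library. Of all genes tested, 30.6% were lower in DAT in this way.

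Ifng was the only member that was higher in CX3 than in CTR. The gene (ENSMUSG00000055170.4, chromosome 10 from 118441046 to 118445892, GRCm38) had 11, 13 and 8 counts in the CTR libraries, 46, 39 and 41 in CX3, and 2, 4 and 1 in DAT. Scaled levels were 0.361, 0.357 and 0.267 CPM in CTR, 1.19, 1.13 and 1.07 CPM in CX3, and 0.0548, 0.201 and 0.0439 CPM in DAT. All 3 CX3 libraries were above all other libraries, the CTR libraries were in between, and DAT A and DAT C were under the 3-count limit. The fitted log2 difference of CX3 from CTR was 1.76 ± 0.28 (SE), a 3.39-fold higher level (adjusted p = 3.4e-04, n = 3 libraries per group). The call was lost in 1 of 18 alternatives, a test against a change of 1 on the log2 scale (adjusted p = 0.16, with 4.4e-07 to 0.16 over the alternatives), and Ifng was not tested where at least 10 counts in every library were required. DAT was lower than CTR by a log2 difference of −1.85 ± 0.50 (adjusted p = 0.0055). This difference was −2.62 without DAT B and −1.48 without DAT A, and in forward-strand counts its adjusted p was 0.051, with 9.7e-04 to 0.19 over its alternatives. From the pooled counts, 126 in CX3 against 7 in DAT, the ratio of CX3 to DAT was 12.8 with an exact 95% interval of 6.02 to 32.4, and the fitted log2 difference was 3.61 ± 0.39 (adjusted p = 2.3e-06), or 4.39 without DAT B. Reads in the exon bases that Ifng shares with Gm49751 are left out of these counts, so its level may be understated.

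In CX3 tissue, 3 of the 10 members were lower than in CTR and all of them were granzymes, while the other granule genes and the receptors did not pass the test. Across all genes tested, 14% were called higher and 16.5% lower in this comparison, and of the members 1 was called higher and 3 lower. The median log2 difference over the 10 members was −0.36, against −0.0033 over all genes. Libraries of both groups did not overlap for 1 member that was higher and 6 that were lower, where 23.9% and 25.4% of all genes tested did so.

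Gzma encodes granzyme A, a trypsin-like protease (ENSMUSG00000023132.8, chromosome 13 from 113093825 to 113100981). Its counts were 126, 163 and 103 in CTR, 26, 31 and 42 in CX3, and 39, 22 and 20 in DAT, or 4.14, 4.48 and 3.43 CPM, 0.675, 0.895 and 1.09 CPM, and 1.07, 1.11 and 0.878 CPM. The CTR libraries were all at least 3.43 CPM, and the CX3 and DAT libraries overlapped each other. Gzma was 4.52-fold lower in CX3 than in CTR (log2 difference −2.18 ± 0.18, adjusted p = 8.6e-07) and 3.93-fold lower in DAT (−1.98 ± 0.19, adjusted p = 7.0e-07). CX3 and DAT differed by −0.20 ± 0.23 (adjusted p = 0.48), so that no difference between them was detected at this depth. It is the member with the lowest fitted difference between CX3 and CTR, and the one with the smallest fitted difference between CX3 and DAT.

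Gzmb encodes granzyme B, the protease that cuts after aspartate and activates caspases (ENSMUSG00000015437.5, chromosome 14 from 56258838 to 56262260). The CTR libraries had 117, 140 and 138 counts, the CX3 libraries 77, 67 and 73, and the DAT libraries 25, 14 and 15. In CPM these were 3.84, 3.85 and 4.601, then 1.999, 1.94 and 1.90, and then 0.686, 0.704 and 0.658. The groups were ordered CTR, CX3 and DAT, with no overlap at either step. The level in CX3 was 2.10-fold lower than in CTR (log2 difference −1.07 ± 0.13, adjusted p = 2.8e-05), that in DAT 5.96-fold lower (−2.58 ± 0.17, adjusted p = 9.9e-09), and CX3 was 2.84-fold above DAT (1.51 ± 0.18, adjusted p = 5.8e-06).

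Gzmk encodes granzyme K, a protease found in memory-type CD8 T cells and NK cells (ENSMUSG00000042385.14, chromosome 13 from 113171608 to 113225908). It had 80, 110 and 99 counts in CTR, 58, 51 and 71 in CX3, and 36, 30 and 23 in DAT, which are 2.63, 3.02 and 3.30 CPM, 1.51, 1.47 and 1.85 CPM, and 0.987, 1.51 and 1.01 CPM. Every CTR library was above every other library, while DAT B lay within the range of CX3. The fall from CTR was 1.85-fold in CX3 (log2 difference −0.89 ± 0.17, adjusted p = 0.0013) and 2.62-fold in DAT (−1.39 ± 0.19, adjusted p = 2.3e-05). CX3 was above DAT by 0.50 ± 0.21 with an adjusted p of 0.048, and this call was lost in 11 of 19 alternatives, with adjusted p values of 0.0084 to 1.

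The 3 granzymes did not fall by the same factor, which changed the share that each had of their summed counts. Gzma made up 36.3 ± 5.17% (SD, n = 3 libraries) of the 3 granzymes in CTR, 19.8 ± 3.32% in CX3 and 35.6 ± 3.00% in DAT. The share of Gzmb was 36.9 ± 3.40%, 44.0 ± 4.37% and 24.0 ± 2.47%, and that of Gzmk 26.8 ± 2.18%, 36.1 ± 1.97% and 40.4 ± 4.77%, in the same order. The lowest Gzma share in CTR was 30.3% and the highest in CX3 22.6%, and the lowest Gzmb share in CTR was 33.9% and the highest in DAT 25.9%. An exact two-sided permutation test of 3 against 3 libraries cannot give less than p = 0.10, which these differences reached, and the adjusted value over the 9 tests was 0.15. Shares rest on 323 to 413 counts per library in CTR, 149 to 186 in CX3 and 58 to 100 in DAT. In DAT C, the Wilson 95% interval of the Gzmb share was 16.3 to 38.4% from counting alone.

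Perforin and Nkg7 stood apart from the granzymes in CX3. Prf1, the gene of the pore-forming protein (ENSMUSG00000037202.6, chromosome 10 from 61297833 to 61304680), had 31, 50 and 35 counts in CTR, 49, 48 and 63 in CX3 and 10, 7 and 4 in DAT. The levels were 1.02, 1.37 and 1.17 CPM in CTR, 1.27, 1.39 and 1.64 CPM in CX3 and 0.274, 0.352 and 0.176 CPM in DAT. CX3 and CTR overlapped, with a log2 difference of 0.26 ± 0.20 (adjusted p = 0.35) that was −0.05 in forward-strand counts. DAT lay below both, by 4.44-fold from CTR (−2.15 ± 0.29, adjusted p = 1.9e-05) and by 5.34-fold from CX3 (CX3 against DAT 2.42 ± 0.28, adjusted p = 4.1e-06). The difference of DAT from CTR was −1.41 in reverse-strand and −3.04 in forward-strand counts.

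Nkg7 encodes a protein of the granule membrane (ENSMUSG00000004612.9, chromosome 7 from 43437073 to 43438249). It had the highest counts of the list, with 217, 261 and 189 in CTR, 327, 232 and 280 in CX3, and 61, 36 and 32 in DAT. In CPM these were 7.13, 7.17 and 6.30, then 8.49, 6.70 and 7.29, and then 1.67, 1.81 and 1.40. CX3 overlapped CTR (log2 difference 0.13 ± 0.11, adjusted p = 0.41), and the DAT libraries were all far below. DAT was 4.21-fold lower than CTR (−2.07 ± 0.14, adjusted p = 2.0e-08) and CX3 4.598-fold higher than DAT (2.20 ± 0.14, adjusted p = 8.8e-09).

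The receptor pair Klrd1 and Klrk1 showed small differences between CX3 and CTR that missed the threshold, and large ones in DAT. Klrd1 encodes CD94, which joins NKG2 chains into receptors for the class I molecule Qa-1 (ENSMUSG00000030165.16, chromosome 6 from 129591782 to 129598775). It had 112, 124 and 106 counts in CTR, 106, 98 and 104 in CX3, and 19, 3 and 13 in DAT, or 3.68, 3.41 and 3.53 CPM, 2.75, 2.83 and 2.71 CPM, and 0.521, 0.151 and 0.570 CPM. The groups did not overlap, and DAT B, at 3 counts, was at the counting limit. The log2 difference of CX3 from CTR was −0.36 ± 0.16 (adjusted p = 0.11), and −0.35 with an adjusted p of 0.032 when only these 6 libraries were fitted, or 0.043 without DAT B, with 0.032 to 1 over its alternatives. DAT was 7.98-fold lower than CTR (−3.00 ± 0.23, adjusted p = 7.1e-08), the strongest fitted fall of a member, and CX3 was 6.24-fold higher than DAT (2.64 ± 0.24, adjusted p = 3.3e-07).

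Klrk1 encodes NKG2D, the activating receptor for stress-induced ligands (ENSMUSG00000030149.15, chromosome 6 from 129610323 to 129623864). Its counts were 109, 138 and 111 in CTR, 107, 93 and 121 in CX3, and 38, 11 and 13 in DAT, with 3.58, 3.79 and 3.70 CPM, 2.78, 2.69 and 3.15 CPM, and 1.04, 0.553 and 0.570 CPM. The order of the groups was again CTR, CX3 and DAT without overlap. CX3 and CTR differed by −0.36 ± 0.15 on the log2 scale (adjusted p = 0.087), which passed with an adjusted p of 0.030 when only these 6 libraries were fitted and with 0.035 without DAT A (range over its alternatives 0.030 to 1). DAT was 4.76-fold lower than CTR (−2.25 ± 0.20, adjusted p = 2.8e-07), and CX3 was 3.71-fold higher than DAT (1.89 ± 0.20, adjusted p = 2.1e-06).

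Cd160 was the one member whose level in DAT overlapped that in CTR. The gene encodes a membrane-anchored receptor of NK cells and CD8 T cells that binds the herpesvirus entry mediator (ENSMUSG00000038304.14, chromosome 3 from 96798763 to 96829351). It had 56, 49 and 34 counts in CTR, 64, 88 and 67 in CX3, and 36, 27 and 27 in DAT, or 1.84, 1.35 and 1.13 CPM, 1.66, 2.54 and 1.74 CPM, and 0.987, 1.36 and 1.18 CPM. The log2 differences from CTR were 0.46 ± 0.22 in CX3 (adjusted p = 0.14) and −0.32 ± 0.25 in DAT (adjusted p = 0.29). CX3 was above DAT by 0.78 ± 0.24 (adjusted p = 0.012), with adjusted p = 0.066 without CX3 B and 0.063 without DAT A (range over its alternatives 0.0014 to 1).

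Cd7 encodes an early surface glycoprotein of T and NK cells (ENSMUSG00000025163.6, chromosome 11 from 121036747 to 121039418). It was close to the counting limit, with 13, 23 and 18 counts in CTR, 13, 9 and 15 in CX3, and 8, 5 and 0 in DAT. The levels were 0.427, 0.632 and 0.600 CPM, 0.338, 0.260 and 0.391 CPM, and 0.219, 0.251 and 0 CPM, and the count of 0 in DAT C allows up to 0.132 CPM. CX3 and DAT were each below CTR without overlap. The difference from CTR was −0.74 ± 0.40 in CX3 (adjusted p = 0.19) and −1.74 ± 0.51 in DAT (adjusted p = 0.0085). CX3 and DAT differed by 1.00 ± 0.54 (adjusted p = 0.13), and by 1.60 with an adjusted p of 0.018 in reverse-strand counts, with a range of 0.018 to 1 over its alternatives. Reads in the exon bases that Cd7 shares with Gm11775 are left out of its counts of either strand, so its level may be understated.

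**Figure D2:**
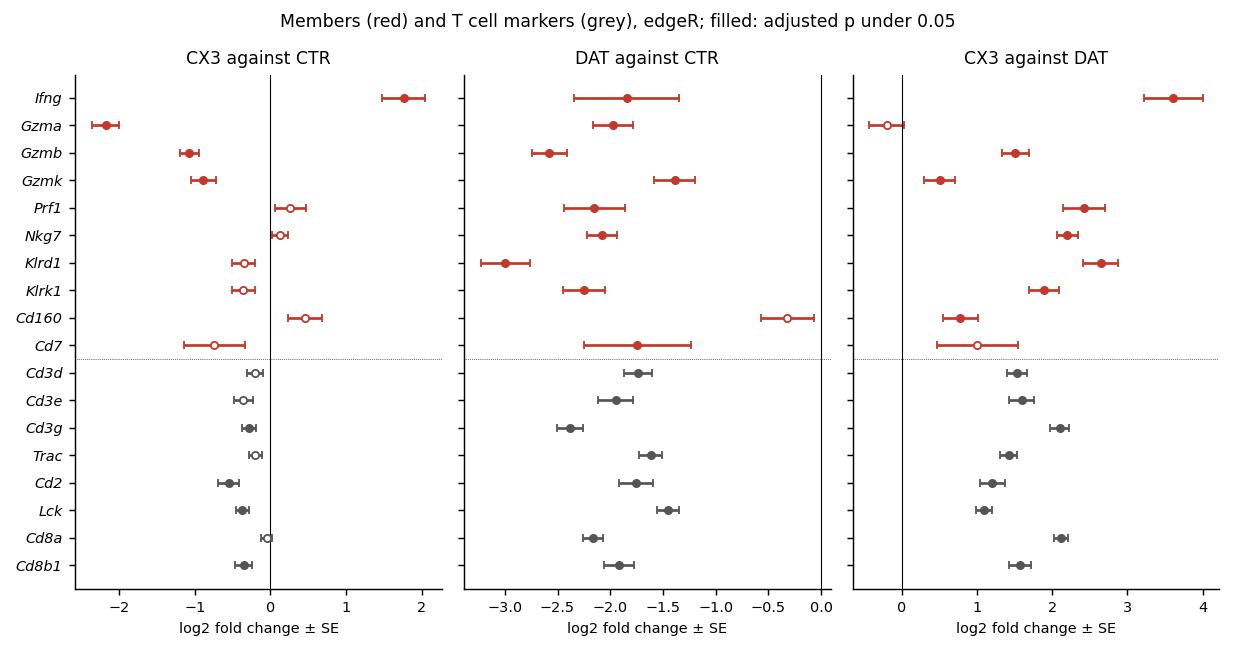
Fitted log2 fold change ± SE (x axis) of the 10 members (red) and of 8 T cell and CD8 T cell markers (grey) in each of the 3 comparisons, where filled points passed an adjusted p of 0.05 in edgeR. In CX3 against CTR the members ranged from −2.18 for Gzma to 1.76 for Ifng, whereas in DAT against CTR all members lay below 0.

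In DAT tissue 9 of the 10 members were lower than in CTR and none was higher, with Cd160 the member not called. Of all genes tested, 27.9% were called lower and 32% higher. DAT and CTR libraries did not overlap for 9 members that were lower and 0 that were higher, where 30.6% and 33.5% of all genes tested did so. The median log2 difference was −2.02 over the members and −0.0038 over all genes. The count of members higher in DAT was also 0 at an unadjusted p under 0.05 in edgeR and in DESeq2. Between CX3 and DAT, 8 members were higher in CX3 and 0 lower, with 27.6% of all genes called higher and 31.3% lower. The count of members lower in CX3 was also 0 at an unadjusted p under 0.05 in edgeR and in DESeq2. DESeq2 called 7 members and 5622 of all 20892 genes higher. Gzma and Cd7 were the members not called. The median log2 difference of CX3 from DAT was 1.70 over the members and 0.010 over all genes. The comparisons share libraries, so their counts are not independent of each other.

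Levels per kilobase of exon allow the members to be ordered within a group. In CTR, Nkg7 was highest at 7.51 ± 0.536 CPM per kb (SD, n = 3), followed by Gzma at 3.99 ± 0.529, Gzmb at 2.85 ± 0.304, Klrd1 at 2.76 ± 0.106 and Gzmk at 2.15 ± 0.243. Cd160, Klrk1, Cd7 and Prf1 followed between 0.545 and 0.459 CPM per kb, within their spread of each other, and Ifng was lowest at 0.254 ± 0.0413. Gzmb and Klrd1 also did not differ beyond their spread. In CX3, Nkg7 was again highest at 8.20 ± 0.998 CPM per kb, followed by Klrd1 at 2.16 ± 0.0483, Gzmb at 1.35 ± 0.0348 and Gzmk at 1.16 ± 0.1499. Gzma, at 0.883 ± 0.208, and Ifng, at 0.872 ± 0.0490, did not differ beyond their spread there, whereas in CTR the level per kb of Gzma was far above that of Ifng. In DAT, Nkg7 at 1.78 ± 0.226 CPM per kb was followed by Gzma at 1.01 ± 0.122 and Gzmk at 0.841 ± 0.212, which overlapped in their spread, while the mean of Ifng, 0.0772 ± 0.0678, was within its spread of Klrk1 (0.101 ± 0.0386), Prf1 (0.103 ± 0.0342) and Cd7 (0.139 ± 0.121), with 2 of its 3 libraries under the 3-count limit. The exon length of Klrk1 includes long annotated transcripts, so that its level per kb may be understated. That of Ifng includes the 25.9% of exon bases shared with Gm49751, where reads are not counted. The level per kb of Ifng may therefore be understated too, also beside that of Gzma in CX3.

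In bulk tissue, fewer lymphocytes and less RNA of a gene per lymphocyte cannot be told apart, so the levels of T cell markers are given beside those of the members. All 6 T cell markers (Cd3d, Cd3e, Cd3g, Trac, Cd2 and Lck) were detected in every group, with a summed level of 46.4 to 49.1 CPM in CTR, 36.5 to 40.9 in CX3 and 13.3 to 15.3 in DAT. In CX3 against CTR 3 of them were lower (Cd3g, Cd2 and Lck) and 0 higher, with a median of −0.32, and in DAT all 6 were lower, with a median of −1.74. The shares of all genes tested were 16.5% lower and 14% higher in CX3, and 27.9% lower in DAT. The CD8 genes Cd8a and Cd8b1 summed to 21.5 to 23.7 CPM in CTR, 19.4 to 20.95 in CX3 and 4.92 to 5.88 in DAT. Of 6 NK cell markers only Klre1 and Klri2 passed the filter on low counts, both lower in DAT than in CTR. In CX3 against CTR neither was called, and their log2 differences were −0.82 and −0.32. The summed level of the 6 was 2.89 to 3.37 CPM in CTR, 2.50 to 3.30 in CX3 and 0.395 to 0.795 in DAT. The NK cell receptor gene Ncr1 did not pass the filter and was named after its values were seen. It had a mean of 0.151, 0.268 and 0.0734 CPM in CTR, CX3 and DAT, with 3, 1 and 2 counts in the DAT libraries.

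Each member was next divided by the summed counts of Cd3d, Cd3e, Cd3g and Trac in the same library, a ratio that does not depend on scaling. These are markers of T cells, while members such as Ifng, Gzmb and Prf1 are also expressed by NK cells. The ratio is therefore not a level per cytotoxic cell. The 4 markers summed to 930 to 1111 counts in CTR, 898 to 1054 in CX3 and 172 to 304 in DAT. Per 1000 of these counts, Ifng was at 11.3, 11.7 and 8.60 in CTR, 43.6, 43.4 and 42.4 in CX3, and 6.58, 22.2 and 5.81 in DAT. The CX3 libraries were well above the rest, and DAT overlapped CTR. Gzma was at 129, 147 and 111 in CTR, 24.7, 34.5 and 43.4 in CX3, and 128, 122 and 116 in DAT, so that on this scale DAT overlapped CTR and only CX3 was low. Gzmb was at 120, 126 and 148 in CTR, 73.1, 74.6 and 75.4 in CX3, and 82.2, 77.8 and 87.2 in DAT. Gzmk was at 82.2, 99.0 and 106 in CTR, 55.0, 56.8 and 73.3 in CX3, and 118, 167 and 134 in DAT. Per T cell marker count, the 3 granzymes were thus lowest in CX3, although the order of Gzmb between CX3 and DAT turned in reverse-strand counts (log2 difference −0.18, or 0.03).

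The granule genes that were not lower in CX3 by CPM had higher values there per T cell marker count. On this scale 51.7% of all genes tested were higher in CX3 than in CTR without overlap, since the T cell markers were lower there. Prf1 had a mean of 55.0 ± 9.39 per 1000 in CX3 against 38.2 ± 6.59 in CTR and 31.7 ± 7.89 in DAT (SD, n = 3). Nkg7 had 286 ± 26.1 in CX3, 220.4 ± 16.0 in CTR and 196 ± 8.25 in DAT. Klrd1 was at 51.6 ± 30.9 in DAT, against 114 ± 1.78 in CTR and 106 ± 4.53 in CX3. Cd160 was highest in DAT, at 142 ± 20.5 against 46.1 ± 10.6 in CTR and 76.0 ± 19.5 in CX3. In DAT 89.5% of all genes tested were likewise above CTR without overlap on this scale. Klrk1, with 119 ± 6.14, 110.0 ± 13.0 and 87.2 ± 33.5, and Cd7, with 17.8 ± 3.91, 12.6 ± 2.75 and 18.0 ± 15.6, overlapped in every comparison.

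On this scale CX3 and CTR did not overlap for 4 members that were higher in CX3 (Ifng, Prf1, Nkg7 and Cd160) and 4 that were lower (Gzma, Gzmb, Gzmk and Klrd1). Over all genes tested, 51.7% were higher and 7.31% lower without overlap, since the T cell markers themselves were lower in CX3. In DAT against CTR, Gzmk and Cd160 were higher and Gzmb, Nkg7 and Klrd1 lower without overlap, against 89.5% and 1.87% of all genes. In CX3 against DAT, Ifng, Prf1, Nkg7 and Klrd1 were higher and the 3 granzymes and Cd160 lower, against 1.88% and 87.7% of all genes. All these differences reached the smallest value an exact two-sided permutation test of 3 against 3 libraries can give, p = 0.10 (adjusted p = 0.14 over 30 tests), so that none can pass 0.05.

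**Figure D3:**
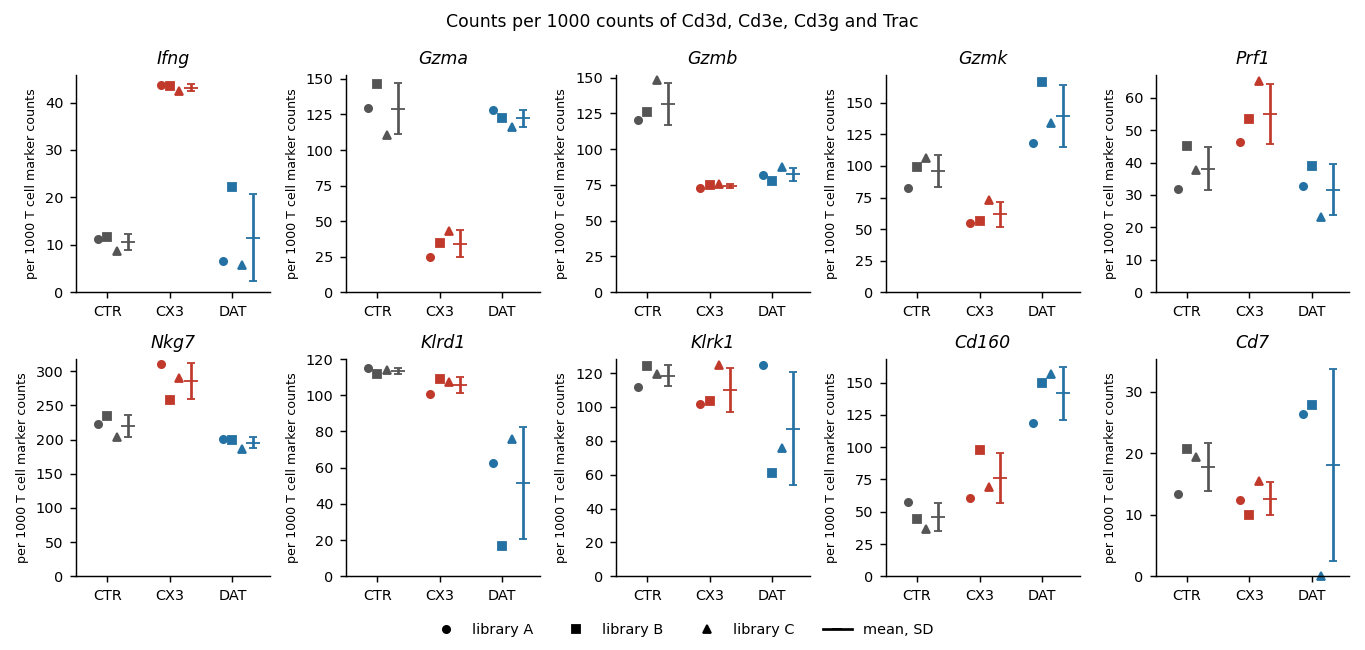
Counts of each member per 1000 summed counts of Cd3d, Cd3e, Cd3g and Trac (y axis, from 0, a separate scale per gene) in the 3 libraries of each group, with mean ± SD. Ifng was between 42.4 and 43.6 in CX3, Gzma between 24.7 and 43.4 in CX3 and at least 111 in all other libraries, and Cd160 at least 118 in DAT. On this scale 51.7% of all genes tested were higher in CX3 than in CTR without overlap, and 89.5% higher in DAT than in CTR.

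The other genes of the cytotoxic pathway were taken from 7 lists with 53 genes, of which 42 passed the filter on low counts. In CX3 against CTR 12 of these were higher and 6 lower, in DAT against CTR 2 were higher and 35 lower, and in CX3 against DAT 38 were higher and 0 lower. Each count of 0 given for these lists and for the T cell markers was also 0 at an unadjusted p under 0.05 in edgeR and in DESeq2. Of all genes tested, 14% were called higher and 16.5% lower in CX3 against CTR, and 32% higher and 27.9% lower in DAT against CTR. In CX3 against DAT 27.6% were called higher and 31.3% lower. These shares stand beside the counts of each list below.

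Of 7 further granzyme genes, only Gzmm, which encodes granzyme M, passed the filter, with 1.33 ± 0.0266 CPM in CTR, 1.77 ± 0.132 in CX3 and 1.80 ± 0.317 in DAT. It was called higher in DAT than in CTR (log2 difference 0.47 ± 0.18, adjusted p = 0.036), while Gzma, Gzmb and Gzmk were lower. The call of Gzmm was lost in 14 of 19 alternatives, DESeq2 among them (adjusted p = 0.097, with 0.030 to 1 over the alternatives). The granzyme genes Gzmc, Gzmd, Gzme, Gzmf, Gzmg and Gzmn had a mean of at most 0.115 CPM in CTR and 0.0356 in CX3.

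The 9 genes for granule loading, release and protection were all lower in DAT than in CTR and all higher in CX3 than in DAT, while in CX3 against CTR 2 were higher and 2 lower. DESeq2 called 8 higher in CX3 than in DAT, without Rab27a, a gene of granule docking, and 1 higher in CX3 than in CTR, without Ctsc. Ctsc encodes cathepsin C, which activates granzymes, and had 64.9 ± 1.67 CPM in CTR, 71.9 ± 3.04 in CX3 and 28.3 ± 1.83 in DAT. CX3 was above CTR by 0.15 ± 0.05 on the log2 scale (adjusted p = 0.048), and Stxbp2, which encodes a protein of granule fusion, by 0.24 ± 0.08 (adjusted p = 0.026). These calls were lost in 11 and 7 of 19 alternatives, with adjusted p values of 0.0032 to 1 for Ctsc and 7.4e-04 to 1 for Stxbp2. The genes lower in CX3 were Ctsw, which encodes the lymphocyte protease cathepsin W (−0.55 ± 0.09, adjusted p = 5.9e-04), and Unc13d, which encodes the granule priming factor Munc13-4 (−0.50 ± 0.11, adjusted p = 0.0025). Srgn, which encodes the proteoglycan that holds granzymes in the granule, had 37.97 ± 2.82 CPM in CTR and 38.01 ± 1.21 in CX3, and 17.2 ± 1.07 in DAT. Serpinb9 encodes an inhibitor of granzyme B and had 29.8 ± 0.356, 32.5 ± 1.45 and 21.99 ± 1.76 CPM. Ctsc, Srgn and Serpinb9 are also expressed by microglia and other cells.

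Of 4 death ligand and cytokine genes, Tnfsf10, which encodes the death ligand TRAIL, was higher in CX3 than in CTR (0.62 ± 0.07, adjusted p = 1.7e-05), and the chemokine gene Ccl5 was lower (−0.44 ± 0.07, adjusted p = 2.2e-04). Ccl5 had 33.3 ± 1.48 CPM in CTR, 24.5 ± 0.505 in CX3 and 11.2 ± 1.44 in DAT, and Tnfsf10 13.9 ± 0.311, 21.4 ± 1.07 and 8.50 ± 0.9498. All 4, with Fasl and Xcl1, were lower in DAT than in CTR and higher in CX3 than in DAT.

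Among genes of receptor partners and ligands, 7 of 12 passed the filter. H2-T23 encodes Qa-1, the class I molecule that CD94 receptors bind, and had 170 ± 7.29 CPM in CTR, 275 ± 4.42 in CX3 and 70.5 ± 10.02 in DAT. It was higher in CX3 than in CTR (0.69 ± 0.07, adjusted p = 7.0e-06), as was Tnfrsf14, which encodes the herpesvirus entry mediator bound by CD160 (0.92 ± 0.15, adjusted p = 4.5e-04). Tyrobp, which encodes the adaptor DAP12 and is abundant in microglia, was lower (−0.36 ± 0.05, adjusted p = 1.8e-04), with 73.3 ± 2.93 CPM in CTR and 57.0 ± 2.88 in CX3. Klrc1, which encodes the inhibitory partner of CD94, had 3.27 ± 0.316 CPM in CTR, 3.63 ± 0.372 in CX3 and 0.395 ± 0.168 in DAT. All 7 were lower in DAT than in CTR and higher in CX3 than in DAT, with medians of −1.60 and 1.99.

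In CX3 against CTR, 14% of all genes tested were called higher and 16.5% lower. Of 13 genes that act in the induction of Ifng, 2 were higher in CX3 than in CTR, near that share, and 0 lower. They were Il18rap, a chain of the interleukin-18 receptor, at 1.997 ± 0.179 CPM in CTR, 5.06 ± 0.270 in CX3 and 0.611 ± 0.277 in DAT (log2 difference of CX3 from CTR 1.34 ± 0.16, adjusted p = 2.8e-05), and Il12rb1, a chain of the interleukin-12 receptor, at 13.5 ± 0.861, 24.2 ± 1.20 and 3.65 ± 0.541 CPM (0.85 ± 0.08, adjusted p = 1.6e-06). The partner chains did not pass the test, with 0.05 ± 0.13 for Il18r1 (adjusted p = 0.80) and −0.33 ± 0.21 for Il12rb2 (adjusted p = 0.27). Tbx21, the gene of the transcription factor T-bet, differed by 0.59 ± 0.27 (adjusted p = 0.11). Il18 had the highest level of the list, at 24.8 ± 0.341, 27.0 ± 2.03 and 16.6 ± 2.19 CPM. The shares of all genes tested were 27.9% lower in DAT than in CTR and 27.6% higher in CX3 than in DAT. In DAT 9 of the 13 were lower than in CTR and 0 higher, and 12 were higher in CX3 than in DAT, with Eomes not called. DESeq2 called 11 of them, without Il12a, which encodes a subunit of interleukin-12.

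For the receptor of interferon gamma, Ifngr1 was lower in CX3 than in CTR (−0.54 ± 0.05, adjusted p = 3.0e-06) and Ifngr2 higher (0.26 ± 0.06, adjusted p = 0.0036), with 51.3 ± 1.37 and 45.3 ± 1.13 CPM in CTR. Of 6 genes that interferon gamma induces, 4 were higher in CX3 than in CTR. These were Gbp2, a guanylate-binding GTPase gene, at 113 ± 1.59 CPM in CTR and 168 ± 3.11 in CX3, Irf1, a transcription factor gene, at 39.9 ± 2.09 and 73.2 ± 3.87, the T cell chemokine gene Cxcl9 at 32.1 ± 0.194 and 57.0 ± 1.06, and Ciita, the regulator of class II genes, at 6.57 ± 0.296 and 19.8 ± 2.01. Ciita had the largest log2 difference of the list, 1.59 ± 0.09 (adjusted p = 1.7e-08). Cxcl10, a further chemokine gene of this list, was lower, with 69.7 ± 1.55 CPM in CTR and 44.5 ± 2.14 in CX3 (−0.65 ± 0.05, adjusted p = 4.0e-07). In DAT 5 of the 6 were lower than in CTR, and Nos2 was called higher (0.69 ± 0.28, adjusted p = 0.044), with 0.682 ± 0.247 CPM in CTR and 1.08 ± 0.0895 in DAT. Its level in CX3 was 1.05 ± 0.227 CPM, with an edgeR adjusted p of 0.090 against CTR and 0.84 against DAT. The call of Nos2 was lost in 13 of 19 alternatives, DESeq2 among them (adjusted p = 0.074, with 0.010 to 1 over the alternatives).

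**Figure D4:**
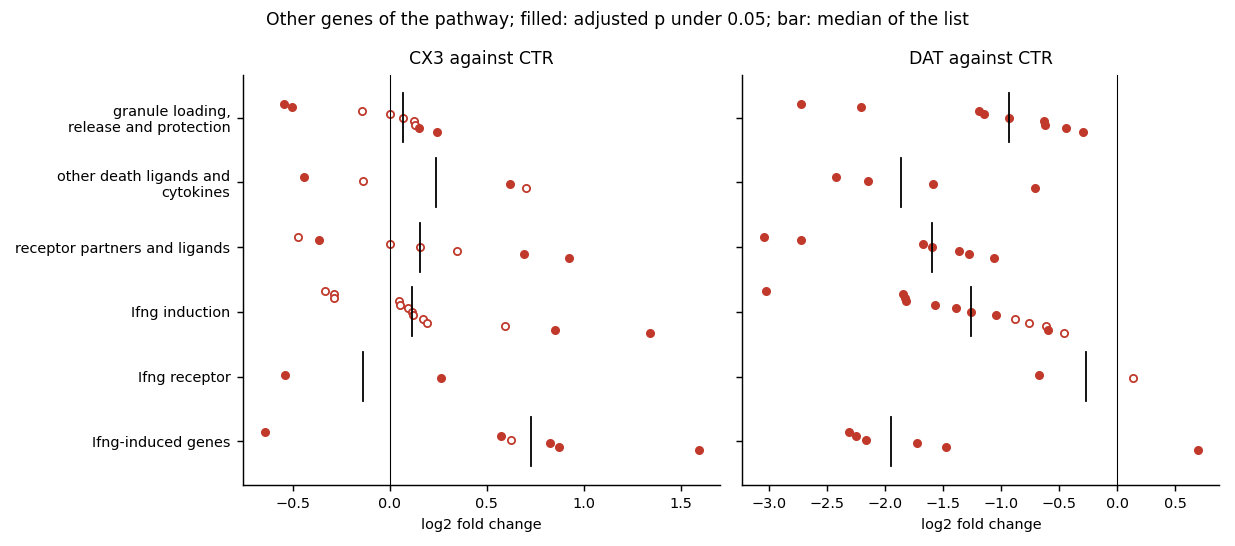
Fitted log2 fold change (x axis) of the tested genes of 6 pathway lists in CX3 against CTR and DAT against CTR, with 1 point per gene, filled where the adjusted p was under 0.05 in edgeR, and a bar at the median of each list. In DAT against CTR the points lay below 0 except for Nos2 and Ifngr2, and in CX3 against CTR the list medians lay between −0.14 and 0.73.

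Markers of other tissues and cells also moved with the groups, and these values stand beside all comparisons above. Summed pituitary hormone genes were at 57.5 to 60.1 CPM in CTR, 2.97 to 3.09 in CX3 and 15.1 to 20.97 in DAT. Choroid plexus markers were at 13.0 to 15.3 CPM in CTR, 57.1 to 58.4 in CX3 and 70.8 to 71.9 in DAT. Erythroid markers were at 242 to 267, 94.5 to 108 and 187 to 266 CPM, B cell markers at 11.5 to 13.7, 3.79 to 4.13 and 2.82 to 3.42, and mast cell markers at 1.35 to 1.54, 4.02 to 5.08 and 2.28 to 3.52. All 4 B cell markers were lower in CX3 than in CTR, as the 3 granzymes and 16.5% of all genes tested were. Their median log2 difference was −1.45, against −0.32 for the T cell markers. Microglia markers were at 597 to 604 CPM in CTR, 420 to 433 in CX3 and 400.3 to 412 in DAT. Dopaminergic neuron markers, which define the labelled tissue, were present in every library, at 833 to 841 CPM in CTR, 1015 to 1031 in CX3 and 643 to 659 in DAT. Of these 5 markers 4 were higher in CX3 than in CTR, and 4 lower and 1 higher in DAT than in CTR. The 1 higher in DAT was not called by DESeq2, also not at an unadjusted p under 0.05. Over all genes tested, 14% were higher in CX3 than in CTR, and 27.9% lower and 32% higher in DAT than in CTR. The share of mapped reads that fell outside genes was 9.29 to 9.46% in CTR, 7.89 to 8.97% in CX3 and 5.20 to 5.34% in DAT. The part of dissection, blood content and RNA composition in the differences of the members was not tested.

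**Figure D5:**
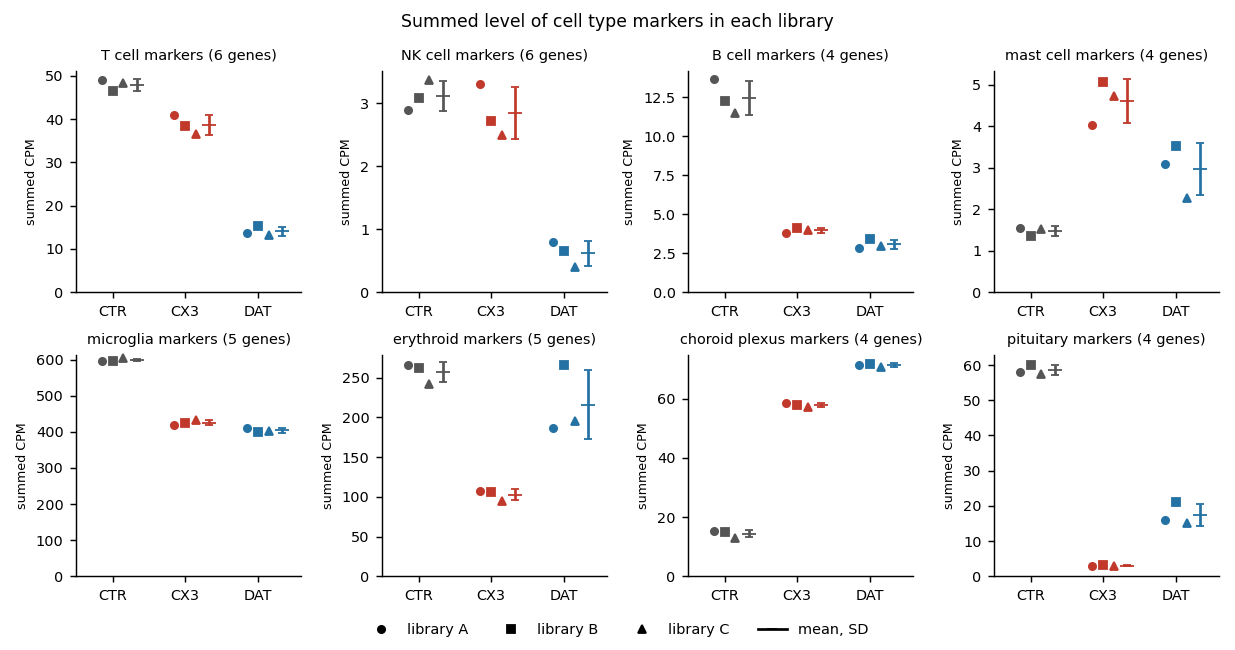
Summed CPM (y axis, from 0, a separate scale per list) of 8 lists of cell type markers in the 3 libraries of CTR, CX3 and DAT, with mean ± SD. T cell and NK cell markers were lowest in DAT, B cell markers were low in both CX3 and DAT, and choroid plexus and pituitary markers separated CTR from the other groups.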

How the data were processed

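The authors deposited whole-number counts of reads per gene for each library, not normalized, with 1 column for reads of either strand and 1 for each strand alone. As described by the authors, reads of 76 bases from a stranded mRNA kit (1 μg of RNA, RIN of at least 9) were processed with Trimmomatic, STAR and featureCounts on mm10, with versions not given in the sources used here. The files have the layout of STAR's gene counts, which leaves out reads that map to several places. Rows that name no gene were left out, and 5.20 to 9.46% of mapped reads were in no gene and 5.40 to 7.11% in more than one.

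Counts of reads on either strand were TMM-scaled and tested with edgeR 4.0.16 (quasi-likelihood F test, group as the only term, all 9 libraries) in R 4.3.3 on the 20892 genes that passed filterByExpr, with Benjamini-Hochberg adjustment over these and a threshold of 0.05. CPM are counts divided by the scaled library size, as edgeR gives them. Groups were taken from the genotype and vector in the labels. A ratio to T cell marker counts, with 0.5 added to the member's count on the log2 scale, and granzyme shares were compared by exact permutation tests in Python 3.11.15 with scipy 1.17.1. Exact intervals of pooled count ratios and Wilson intervals of shares, both at 95%, cover counting error only. Alternatives were other scalings, filters, strands, DESeq2 1.42.0, a block for library letters, the 2 groups alone, each library left out and a threshold of 1 on the log2 scale (glmTreat).

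The members, lists and tests were chosen with earlier results of these data known. All 10 members are named. Of other lists, the genes with the highest mean CPM are named, and those that a count of 5 or fewer needs. Tbx21, Il18r1, Il12rb2, Ncr1 and the granzyme genes that did not pass the filter are named in addition, chosen after their values were seen. The single-cell libraries of the study were not used here.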

Additional observations from a re-analysis of the deposited data

How the results depend on the processing

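Counts of calls were recomputed under each alternative. A filter of at least 10 counts in every library left out Ifng, Prf1, Klrd1 and Cd7. Of the members still tested, 0 were higher in CX3 than in CTR, 5 lower in DAT than in CTR and 5 higher in CX3 than in DAT. Of the 16878 genes tested there, 2743, 5051 and 5163 were called in the same order. With only the 2 groups compared, 5 members were lower in CX3 than in CTR, as were 4309 of the 20742 genes tested. Against a change of 1 on the log2 scale, 0 members were higher and 1 (Gzma) lower in CX3 than in CTR. Of pathway genes, 1 was then higher and 0 lower in CX3 against CTR, 0 higher and 21 lower in DAT against CTR, and 21 higher in CX3 against DAT. Of all genes, 63 were higher and 181 lower, 305 higher and 1143 lower, and 929 higher and 436 lower in the same order. The 2 pathway genes higher in DAT than in CTR, Gzmm and Nos2, lost their calls in most alternatives. The number of pathway genes called higher there was 0 with library size alone, at least 10 counts in every library, reverse-strand counts, forward-strand counts, DESeq2, the block or only the 2 groups, 1 with genes of at least 1 count, and 0 to 2 with each library left out, where it was 0 without CTR A, CTR B, CX3 C or DAT A and 1 without CTR C. With each library left out, the lowest and highest counts of members called were 1 and 1 higher and 3 and 4 lower in CX3 against CTR, 9 and 9 lower in DAT against CTR, and 6 and 8 higher in CX3 against DAT. Over all genes, 21175 to 21699 of which were tested, these were 2014 and 4209, 2624 and 4379, 5287 and 6560, and 5210 and 6565 in the same order. Library size alone moved the median of all genes to 0.043, −0.15 and 0.20 in the 3 comparisons, gave 8916 genes higher in CX3 than in DAT, and moved the share of calls that were higher from 45.9 to 58.9%, 53.4 to 37.8% and 46.8 to 66.7%, so that the members' differences are read relative to those medians. Directions turned for Gzma in CX3 against DAT (0.12, adjusted p = 0.79) and Prf1 in CX3 against CTR (−0.045, adjusted p = 0.94) in forward-strand counts, and the cause was not tested. Per T cell marker count, the sign turned for Klrd1 in CX3 against CTR with Cd3e as denominator (0.000567), for Nkg7 in DAT against CTR with Cd8a and Cd8b1 (0.0084) and for Gzmb in CX3 against DAT in reverse-strand counts (0.032), where the numbers of members without overlap were 1 lower in DAT against CTR and 2 higher in CX3 against DAT. The library letters are shared by the groups, but the deviations of same-letter libraries did not move together (r of −0.43 to 0.28, against up to 0.50 for other letters), so they were not taken as pairs. With the replicate block, 1 member was higher and 3 lower in CX3 against CTR, 9 lower in DAT against CTR and 7 higher in CX3 against DAT, and the call lost was that of Gzmk (adjusted p = 0.062, range over its alternatives 0.0084 to 1). With this block, 2654, 3151, 5615 and 5557 of all 20892 genes tested were called in the same order. Depth limits Ifng and Cd7 in DAT most, where single libraries held 0 to 8 counts.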

Other observations

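Over the 9 libraries, the 5 genes outside all lists whose log2 CPM was most like the mean standardized level of the 10 members were Ttc4 (Pearson r of 0.998), Lyn (0.997), Akap8l (0.996), Gm44986 (0.995) and Rpl10 (0.994). The libraries form 3 groups, so this likeness describes mostly the order CTR, CX3 and DAT, and it is given with no test. Lyn, a Src-family kinase gene of myeloid and B cells, had 36.7 ± 1.37 CPM in CTR, 30.2 ± 0.549 in CX3 and 14.4 ± 1.66 in DAT (SD, n = 3 libraries). Rpl10, a ribosomal protein gene, had 414 ± 2.94, 374 ± 5.87 and 229 ± 19.3 CPM.

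T cell receptor variable-region genes, taken from a mean of 1 count per library, had a Spearman rho between libraries of 0.400 to 0.823 within groups and 0.248 to 0.568 between groups. Within CTR it was 0.400 to 0.471. Immunoglobulin genes were taken from a mean of 5 counts, so both sets of values differ in depth and are not compared.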
